A study of Mus musculus with 12 samples.

Results

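Acyl-CoA thioesterases (gene family Acot) were followed in 2 fat depots of the mouse, brown adipose tissue (BAT) and white adipose tissue from under the skin (sWAT), in the cold and at thermoneutrality. The 10 genes were taken by symbol from a fixed list (Acot1, Acot2, Acot3, Acot4, Acot7, Acot8, Acot9, Acot11, Acot12 and Acot13), and all 10 were found among the 23163 gene symbols of the count table. The mice were male wild-type C57Bl/6 animals of 8 to 12 weeks, 20 in all, of which 10 spent 72 hours at 4 °C and 10 spent 72 hours at 30 °C, where body warmth is kept without added heat production. The 4 groups were BAT at 4 °C, BAT at 30 °C, sWAT at 4 °C and sWAT at 30 °C, with 3 RNA sequencing libraries in each. Whether each library stands for 1 animal or a pool is not in the labels, so p-values measure the spread between these libraries, which may be technical. The labels mark BAT cold library 1 and sWAT cold library 2 as merged, without saying what was merged.

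Acyl-CoA thioesterases cut the bond between a fatty acid and coenzyme A and so return an activated fatty acid to a free fatty acid and free CoA. Acyl-CoA synthetases run the opposite reaction, and the carnitine shuttle and beta-oxidation draw on the same pool of acyl-CoA. In brown fat, fatty acids are both the fuel of heat production and activators of uncoupling protein 1 (Ucp1), and Acot11, also called Them1 or BFIT, is known as a brown fat thioesterase that is induced by cold. The family falls into type I enzymes, which resemble one another closely (Acot1 in the cytosol, Acot2 in mitochondria, Acot3 and Acot4 in peroxisomes), and type II enzymes of the hotdog fold (Acot9 in mitochondria, Acot13 on and near mitochondria, Acot8 in peroxisomes, and Acot7, Acot11 and Acot12 in the cytosol).

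The type I genes lie side by side on the plus strand of chromosome 12 in GRCm38, the assembly also called mm10, in the order Acot2, Acot1, Acot4, Acot3, Acot5 and Acot6, within 123 kb. Acot2 spans chr12:83987861-83993873, Acot1 spans chr12:84009490-84018371, Acot4 spans chr12:84038379-84048601 and Acot3 spans chr12:84052144-84060402. Their coding sequences, taken from the GENCODE M21 transcripts, are so alike that reads can fit more than one gene. Acot1 and Acot2 were identical at 1180 of 1239 aligned coding bases (95.2%), and the other 14 pairs among the 6 genes at 75.2% to 85.8%. Coding bases 994 to 1053 of Acot1 are shown with the aligned stretch of the other 5 genes. They show where Acot1 and Acot2 cannot be told apart by 1 read alone. Capitals mark bases that differ from Acot1, 5′ to 3′.
Acot1: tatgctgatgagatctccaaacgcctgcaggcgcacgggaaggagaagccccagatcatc
Acot2: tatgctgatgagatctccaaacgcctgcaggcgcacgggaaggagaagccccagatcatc
Acot3: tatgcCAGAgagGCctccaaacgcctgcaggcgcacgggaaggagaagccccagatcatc
Acot5: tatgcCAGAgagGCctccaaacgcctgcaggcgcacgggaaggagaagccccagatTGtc
Acot6: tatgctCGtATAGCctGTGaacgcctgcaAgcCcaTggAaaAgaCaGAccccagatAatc
Acot4: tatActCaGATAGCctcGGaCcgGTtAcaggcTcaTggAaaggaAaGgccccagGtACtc
In this stretch Acot2 differed from Acot1 at 0 bases, Acot3 at 6, Acot5 at 8, Acot6 at 19 and Acot4 at 22. Acot1 and Acot2 shared 3 identical coding runs of at least 100 bases, 656 bases in all. Of all 100-base windows of the longest transcript, the length of 1 read, 12.5% in Acot1, 17.1% in Acot2, 14.3% in Acot3 and 0.360% in Acot4 also occurred in a transcript of another gene. The share was 0.968% in Acot9, all of it shared with Acot10, and 0 in Acot7, Acot8, Acot11, Acot12 and Acot13. For Acot1 and Acot2 most of these windows were shared between the pair (301 of 314 in Acot1 and 359 of 359 in Acot2), and 13 of Acot1 were shared with Acot5. Of the 478 windows of Acot3, 330 occurred in Gm49366, a gene model on the same strand that overlaps 396 exon bases of Acot3 and 33 of Acot4, and 104 each in Acot1 and Acot5. The libraries were read as pairs, and how often the other read of a pair would settle the gene was not tested. Counts of Acot1, Acot2 and Acot3 are therefore uncertain.

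Acot1 and Acot2 also differ in length at the 5′ end of the coding sequence, where Acot2 has 123 more bases (41 codons). This leader, which adds the amino-terminal extension known to direct Acot2 to mitochondria, is given below with the codon aligned to the start codon of Acot1 in capitals.
Acot2 leader: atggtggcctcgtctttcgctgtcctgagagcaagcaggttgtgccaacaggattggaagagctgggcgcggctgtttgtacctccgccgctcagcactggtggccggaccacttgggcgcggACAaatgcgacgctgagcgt

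The type II genes are spread over the genome. Acot11 lies on the minus strand at chr4:106744555-106804998, Acot7 on the plus strand at chr4:152178134-152271855, Acot12 on the plus strand at chr13:91741512-91786148, Acot13 on the minus strand at chr13:24817948-24831540, Acot8 on the minus strand at chr2:164792765-164804882 and Acot9 on the plus strand at chrX:155262443-155297654. RefSeq promoter windows of 300 bases (250 before a start site and 50 from it, GRCm38.p6) were found for 9 of the 10 genes, all but Acot13, 11 windows in all. The 120 bases before the start sites of Acot11 (2 sites), Acot12 and Acot4 are shown, because these genes were higher in cold in BAT and differ in which motifs they hold. Acot1 and Acot2 were also higher in cold in BAT and are not shown. The window of Acot1 held none of the motifs searched. Capitals mark the nuclear receptor core AGGTCA read on the opposite strand.
Acot11, chr4:106805008-106805127, minus strand: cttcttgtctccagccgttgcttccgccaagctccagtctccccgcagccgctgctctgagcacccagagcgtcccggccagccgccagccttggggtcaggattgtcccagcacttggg
Acot11, chr4:106799832-106799951, minus strand: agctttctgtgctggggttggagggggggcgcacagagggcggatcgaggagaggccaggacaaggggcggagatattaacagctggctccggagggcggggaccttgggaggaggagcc
Acot12, chr13:91741401-91741520, plus strand: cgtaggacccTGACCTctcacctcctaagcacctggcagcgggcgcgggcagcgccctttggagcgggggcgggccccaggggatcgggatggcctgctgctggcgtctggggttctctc
Acot4, chr12:84038259-84038378, plus strand: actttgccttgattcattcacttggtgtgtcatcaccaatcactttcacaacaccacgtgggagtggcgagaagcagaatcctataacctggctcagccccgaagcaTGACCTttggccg
AGGTCA, searched on both strands, occurred in 4 of the 11 windows, those of Acot12, Acot4 and both windows of Acot3. The windows of Acot3 overlap and hold the same site, so the motif was found for 3 of the 9 genes. It occurred in 16.3% of all 32851 windows of this length. The core TGACG of the cAMP response element occurred in 1 window, that of Acot2, and in 20.8% of all windows. The full element TGACGTCA, which contains TGACG, the direct repeat 1 element bound by PPAR with RXR and the element TCAAGGTCA of the estrogen-related receptors, which both contain AGGTCA, occurred in 0 of the 11 windows and in 1.79%, 0.0396% and 0.423% of all windows. A match of letters is a description of the window and not a binding site.

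The libraries held 27117934 to 56243016 counts, and the temperature labels were checked with Ucp1, at 1419 to 2553 CPM (counts scaled to a common library total with TMM factors) in BAT at 30 °C and 20079 to 23101 in BAT at 4 °C, and at 41.2 to 377 in sWAT at 30 °C and 3211 to 13212 in sWAT at 4 °C. The adipocyte marker Adipoq was present in all libraries, at 449 to 2552 CPM. The sWAT libraries at 30 °C stood apart from all others: the 13 mitochondrially encoded genes took 0.181% to 0.307% of their counts, against 17.6% to 53.8% elsewhere, and 81 ribosomal protein genes took 6.35% to 7.15%, against 0.310% to 1.62%. The slope of their counts against transcript GC content was 0.883 to 1.46, against -0.712 to 0.324 elsewhere. Since these were all the sWAT libraries at 30 °C, these properties and the temperature cannot be told apart in sWAT. In BAT, the libraries numbered 3 had the lowest mitochondrial share at 30 °C (17.6%) and the highest at 4 °C (53.8%). Of the sWAT libraries at 4 °C, library 1 had the lowest summed brown adipocyte markers (4492 CPM, against 14786 and 16857) and the highest summed lymphocyte markers (929 CPM, against 286 and 327). In bulk tissue, fewer cells of a type and less RNA per cell cannot be told apart.

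In BAT most of the family's summed level per length came from Acot13 at thermoneutrality and from Acot11 in the cold. In sWAT in the cold these 2 genes stood at similar levels per length. Levels are compared between genes per kilobase of the longest transcript, and which transcripts were in use was not tested. Without division by length, mean CPM was 180 for Acot13 and 126 for Acot11 in BAT at 30 °C. In sWAT at 4 °C it was 68.0 for Acot13 and 648 for Acot11. In BAT, Acot11 rose from 22.1 ± 4.14 CPM per kb at 30 °C to 293 ± 8.84 at 4 °C (SD, n = 3), while Acot13 stood at 249 ± 56.2 and 147 ± 20.0. In sWAT, Acot11 stood at 4.48 ± 3.65 CPM per kb at 30 °C and 114 ± 66.9 at 4 °C, and Acot13 at 34.3 ± 7.37 and 94.3 ± 41.1. As a share of the summed per-kb level of the 10 genes, Acot11 made up 5.99% to 8.30% in the BAT libraries at 30 °C and 52.5% to 61.9% at 4 °C, and 2.34% to 8.70% in the sWAT libraries at 30 °C and 30.7% to 43.5% at 4 °C. Acot13 made up 73.1% to 82.1% in BAT at 30 °C, 25.8% to 28.8% in BAT at 4 °C, 31.2% to 42.5% in sWAT at 30 °C and 33.2% to 38.4% in sWAT at 4 °C. A share within the family does not depend on how libraries are scaled, but it depends on the other members. The share of Acot13 thus falls where Acot11 rises, and the level of Acot13 itself did not pass the test for cold in BAT. Differences that act by gene, such as the slope against GC content, are not removed by taking shares. The shares of Acot11 at the 2 temperatures did not overlap in either tissue, nor did those of Acot13 in BAT.

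**Figure D1:**
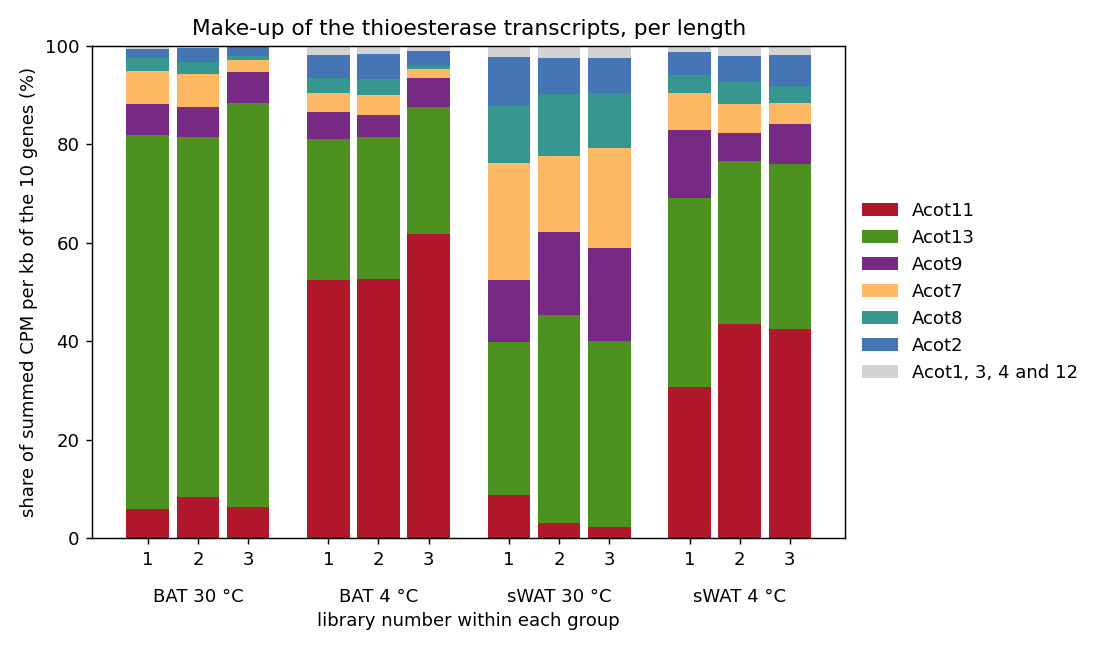
Stacked bars show each gene's share, in percent, of the summed CPM per kb of the 10 thioesterase genes, 1 bar for each of the 12 libraries. Acot13 fills 73.1% to 82.1% of the bars of BAT at 30 °C, and Acot11 fills 52.5% to 61.9% of those at 4 °C.

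The summed level of the 10 genes was 322 ± 53.0 CPM per kb in BAT at 30 °C and 528 ± 42.0 at 4 °C, and 92.4 ± 13.1 in sWAT at 30 °C and 277 ± 135 at 4 °C. Without Acot11 the sum was 300 ± 50.8 and 236 ± 45.2 in BAT, where the highest cold library (268) lay just below the lowest thermoneutral one (269), and 88.0 ± 11.3 and 163 ± 67.7 in sWAT, where cold library 1 lay within the range at 30 °C. Acot9, Acot7, Acot2 and Acot8 formed a middle tier per length, with group means between 6.02 and 27.7 CPM per kb. Acot1 stood at 0.627 to 5.29, Acot4 at 0.534 to 1.40, Acot12 at 0.00989 to 1.24 and Acot3 at 0.0575 to 0.168 CPM per kb.

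**Figure D2:**
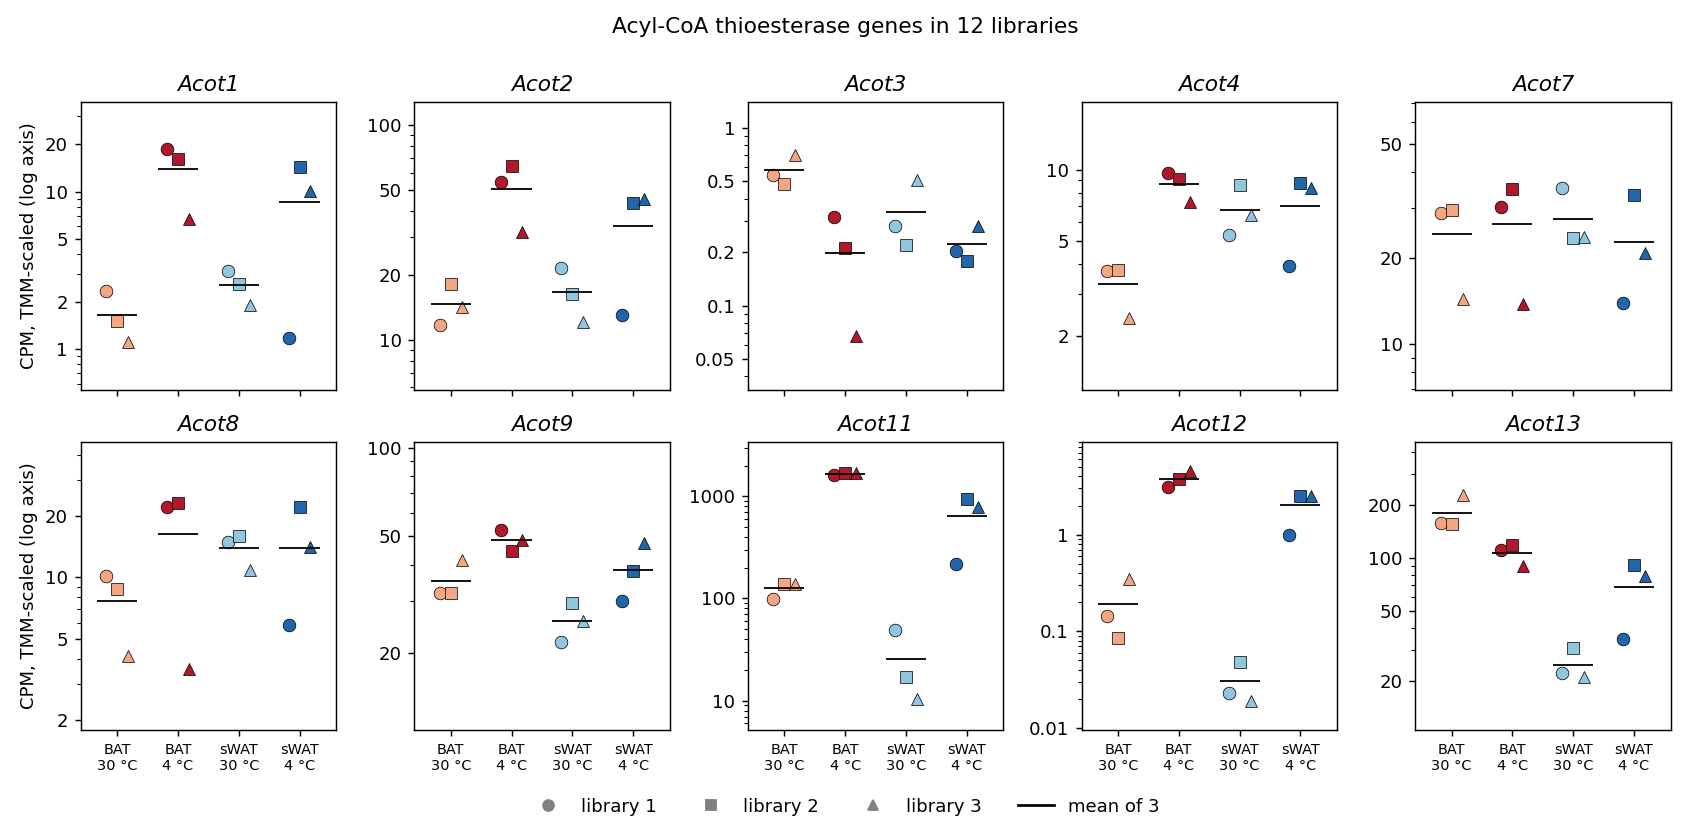
Each panel plots 1 gene's TMM-scaled CPM on a log axis for the 3 libraries of each of the 4 groups, with the group mean as a line. Acot11 and Acot12 are higher at 4 °C in all libraries of both tissues, whereas Acot13 is lower at 4 °C in BAT and higher at 4 °C in sWAT.

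With cold, 5 of the 10 genes were higher in BAT and 3 in sWAT, and 0 were lower in either tissue. The 5 in BAT were Acot1, Acot2, Acot4, Acot11 and Acot12, and the 3 in sWAT were Acot11, Acot12 and Acot13. All 10 passed the filter on low counts, and the quasi-likelihood test of edgeR, adjusted by Benjamini-Hochberg over all genes, gave the calls at an adjusted p under 0.05. In BAT the test called 12.2% of 14612 genes, 6.82% higher and 5.34% lower, and a block for the experiment number raised the calls over all genes from 1777 to 2799 but left the same 5 thioesterase genes. In sWAT it called 49.2% of 15731 genes, 25.1% higher and 24.1% lower, so 3 of 10 higher is close to the background share there. The median log2 change of the 10 genes was 1.29 in BAT, against -0.04 over all genes, and 0.79 in sWAT, against 0.00. At an unadjusted p under 0.05, 2 genes were lower in BAT (Acot3 and Acot13) and 0 in sWAT, and DESeq2 and limma-voom called 0 lower in both tissues. With both BAT libraries numbered 3 left out, 7 of the 10 were higher in BAT, where 22.4% of 14566 genes were then called higher. Without sWAT cold library 1, 6 of the 10 were higher in sWAT, beside 26.3% of 16090 genes. Without BAT cold library 1, 3 of the 10 were higher in BAT, beside 2.38% of 15180 genes.

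**Figure D3:**
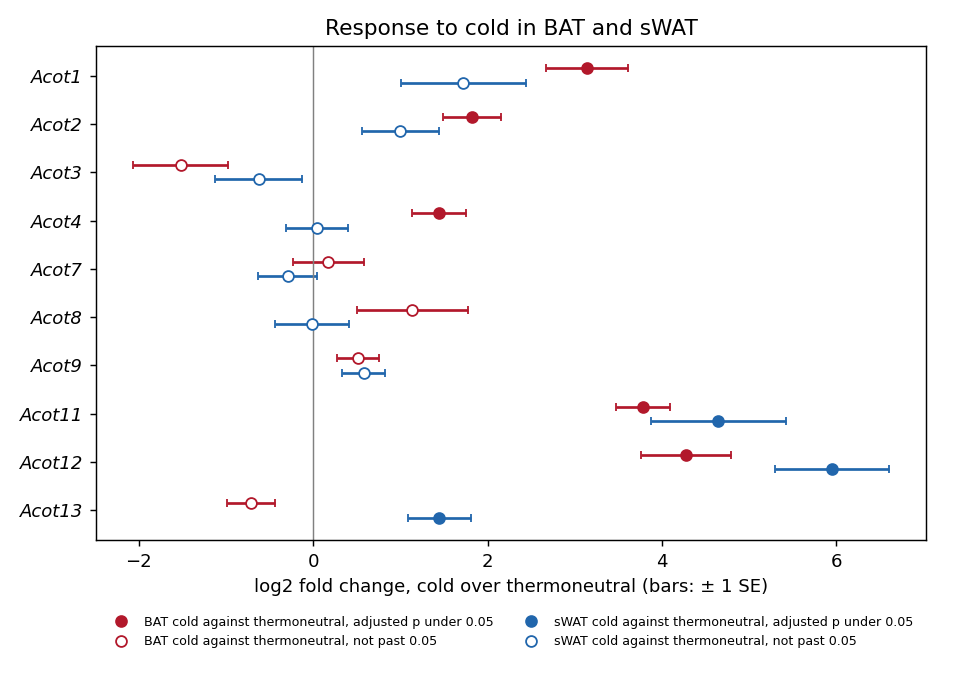
Points give the log2 fold change of cold over thermoneutral for each of the 10 genes in BAT (red) and sWAT (blue), with bars of 1 SE, filled where the adjusted p was under 0.05. Acot11 and Acot12 are filled in both tissues, and Acot13 lies at -0.71 in BAT and 1.45 in sWAT.

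Acot11 was the most abundant thioesterase transcript by CPM in the cold in both tissues. It stood at 98.3, 138 and 140 CPM in BAT libraries 1, 2 and 3 at 30 °C and at 1608, 1691 and 1698 CPM at 4 °C. The cold libraries of BAT lay within a narrow band, far above the thermoneutral ones. In sWAT it stood at 49.1, 17.0 and 10.3 CPM at 30 °C and at 217, 937 and 791 CPM at 4 °C. All sWAT cold libraries lay above all thermoneutral libraries of both tissues, and library 1 was the lowest of the 3. The log2 fold change was 3.78 ± 0.31 in BAT (13.8-fold, adjusted p = 0.000928) and 4.65 ± 0.77 in sWAT (25.1-fold, adjusted p = 0.00177). The difference between these responses, sWAT minus BAT, was 0.94 ± 0.79 (95% interval -0.76 to 2.64, adjusted p = 0.398), so a larger or smaller response in sWAT was not resolved. On the opposite strand, Fam151a overlaps exons of Acot11 over 1263 bases. It had 0 to 38 counts per library and Acot11 had 543 to 56164, and the part of the overlap in these counts was not tested.

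Acot12, a cytosolic enzyme known for hydrolysing acetyl-CoA in liver and, like Acot11, carrying a lipid-binding START domain, rose in both tissues from a handful of counts. It had 4, 3 and 15 counts in the BAT libraries at 30 °C and 70, 124 and 135 at 4 °C. In sWAT it had 1, 2 and 1 counts at 30 °C and 53, 85 and 81 at 4 °C. No cold library overlapped a thermoneutral one in either tissue. The log2 fold change was 4.27 ± 0.52 in BAT (adjusted p = 0.00314) and 5.95 ± 0.65 in sWAT (adjusted p = 0.000389). As the sWAT value rests on 4 counts at 30 °C, the ratio of the summed counts, scaled for depth, was 62.8 with an exact 95% counting interval of 24.2 to 233, and in BAT it was 18.5 (12.0 to 30.0). Even in the cold Acot12 reached only 3.80 ± 0.704 CPM in BAT and 2.02 ± 0.896 in sWAT (SD, n = 3). Of the 6 hepatocyte markers 0 changed with cold among the 2 tested in BAT and the 3 tested in sWAT, and their summed level ranged from 2.01 to 8.73 CPM in BAT at 30 °C and 0.908 to 2.73 at 4 °C, and from 12.4 to 24.3 in sWAT at 30 °C and 9.86 to 25.4 at 4 °C. Most of the sWAT sum was Alb, at 12.0 to 15.2 CPM at 30 °C and 7.36 to 24.3 CPM at 4 °C, above Acot12, while Ttr and Fgb had 0 counts in all 6 cold libraries. Apoa2 had 14 to 65 counts in the BAT cold libraries and 16 to 55 in the sWAT cold libraries. Apoa1 had 0 to 8 and 5 to 13 counts there, and Serpina1a had 4 to 8 in the BAT cold libraries. The part of hepatocyte RNA in the values of Acot12 was not tested. The antisense gene 4833422C13Rik overlaps Acot12 over 149 exon bases and had 1 to 27 counts per library.

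Acot13, also called Them2, is a small long-chain thioesterase that associates with mitochondria and binds the phosphatidylcholine transfer protein Pctp. By edgeR it was the only member called for a difference of the cold response between the tissues. It stood at 158, 155 and 226 CPM in BAT at 30 °C and at 111, 117 and 89.7 CPM at 4 °C. Every cold library of BAT lay below every thermoneutral one. In sWAT the values were 22.3, 30.8 and 21.1 CPM at 30 °C and 34.5, 90.7 and 78.8 CPM at 4 °C. Here every cold library lay above every thermoneutral one, library 1 by the least. The log2 fold change was 1.45 ± 0.36 in sWAT (adjusted p = 0.00994) and -0.71 ± 0.27 in BAT, which did not pass the test (95% interval -1.33 to -0.08, adjusted p = 0.127). The difference of the responses, sWAT minus BAT, was 2.22 ± 0.47 on the log2 scale (95% interval 1.20 to 3.24, adjusted p = 0.00596). In this comparison edgeR called 25.1% of 16365 genes, 17.3% higher and 7.85% lower. Acot13 was the only 1 of the 10 thioesterase genes called, and 1 of 10 higher is not above the background share. Leaving out any 1 library kept the call of Acot13, with differences from 1.78 to 2.41 and adjusted p up to 0.0244. With both BAT libraries numbered 3 left out it was 1.93 (adjusted p = 0.0151). Acot4 missed the threshold by edgeR but was called by DESeq2 and limma-voom, as given below.

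Of the type I genes of the chromosome 12 group, Acot1, Acot2 and Acot4 were called higher with cold in BAT. Acot5 and Acot6, outside the list of members, were called higher in both tissues, as given below. Acot3 was not called in either tissue, nor were Acot1, Acot2 and Acot4 in sWAT. Acot1, a cytosolic long-chain thioesterase and known target of PPAR alpha, stood at 2.32, 1.50 and 1.10 CPM in BAT at 30 °C and at 18.6, 16.1 and 6.72 CPM at 4 °C. Acot2, its mitochondrial counterpart, stood at 11.7, 18.2 and 14.3 CPM in BAT at 30 °C and at 54.4, 64.3 and 31.7 CPM at 4 °C. For both genes all cold libraries of BAT exceeded all thermoneutral ones, and cold library 3 was the lowest of the cold libraries. Acot1 rose by 3.14 ± 0.47 (adjusted p = 0.00674) and Acot2 by 1.82 ± 0.34 (adjusted p = 0.0132) on the log2 scale. The call of Acot2 was lost without BAT thermoneutral library 1 (adjusted p = 0.065), cold library 1 (0.051) or cold library 2 (0.060). With the counts of Acot1 and Acot2 added together, so that a read given to either gene counts once, the change in BAT was 2.02 ± 0.34 (adjusted p = 0.0095). Reads that the counting may have left out, and those shared with Acot5, are not covered by this sum.

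In sWAT the same pair was split by 1 library. Acot1 stood at 3.14, 2.57 and 1.90 CPM at 30 °C and at 1.17, 14.3 and 10.1 CPM at 4 °C, and Acot2 at 21.7, 16.3 and 12.1 CPM and at 12.98, 43.2 and 45.2 CPM. Cold library 1 lay below the lowest thermoneutral library for Acot1 and within their range for Acot2, while cold libraries 2 and 3 lay above all of them. Neither gene passed the test, at 1.72 ± 0.71 for Acot1 (adjusted p = 0.0732) and 1.00 ± 0.45 for Acot2 (adjusted p = 0.0913), nor did the sum of both (1.12 ± 0.48, adjusted p = 0.0809). Without cold library 1, Acot1 was at 2.25 ± 0.32 (adjusted p = 0.000382) and Acot2 at 1.39 ± 0.27 (adjusted p = 0.00219). That library is also the one with the most lymphocyte and the least brown adipocyte marker RNA of the 3, and the part of this in the values was not tested. DESeq2 called Acot1 in sWAT as well (adjusted p = 0.0213). Over all alternatives Acot1 in sWAT ranged from 1.03 to 2.25, with adjusted p from 0.000382 to 0.428. Acot2 ranged from 0.74 to 1.52, with adjusted p from 0.00219 to 0.260.

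Of the peroxisomal type I genes, Acot4, which hydrolyses succinyl-CoA, rose in BAT, and Acot3 did not pass the test in either tissue. Acot4 stood at 3.77, 3.79 and 2.39 CPM in BAT at 30 °C and at 9.63, 9.09 and 7.33 CPM at 4 °C. In sWAT it stood at 5.30, 8.59 and 6.46 CPM at 30 °C and at 3.93, 8.79 and 8.36 CPM at 4 °C. The BAT groups were apart, whereas the sWAT groups overlapped. The log2 fold change was 1.45 ± 0.31 in BAT (adjusted p = 0.0208) and 0.04 ± 0.36 in sWAT (95% interval -0.77 to 0.85, adjusted p = 0.934). The BAT call was lost when thermoneutral library 1 or 2 or cold library 1 or 2 was left out (adjusted p between 0.067 and 0.093). The difference of the responses, at -1.34 ± 0.49 (adjusted p = 0.0576), missed the threshold but was called by DESeq2 (-1.51, adjusted p = 0.0118) and limma-voom (-1.46, adjusted p = 0.046). Acot3 had only 15, 17 and 30 counts in BAT at 30 °C and 7, 7 and 2 at 4 °C, and 12, 9 and 27 in sWAT at 30 °C and 11, 6 and 9 at 4 °C. Its log2 fold changes were -1.52 ± 0.54 in BAT (adjusted p = 0.103) and -0.62 ± 0.50 in sWAT (adjusted p = 0.325), with all BAT cold libraries below all BAT thermoneutral ones. The antisense gene 4732463B04Rik overlaps 312 exon bases of Acot3 and 615 of Acot4 and had 1 to 10 counts per library, against 2 to 30 for Acot3.

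The remaining 3 genes, Acot7, Acot8 and Acot9, did not pass the test for cold in either tissue. Acot7, a cytosolic long-chain enzyme best known from brain, stood at 28.8, 29.5 and 14.5 CPM in BAT at 30 °C and at 30.2, 34.8 and 13.9 CPM at 4 °C, so that both libraries numbered 3 were low. In sWAT it stood at 35.3, 23.6 and 23.7 CPM at 30 °C and at 13.98, 33.3 and 20.95 CPM at 4 °C, with overlap between the groups. Its log2 fold changes were 0.17 ± 0.41 in BAT (95% interval -0.75 to 1.10) and -0.29 ± 0.34 in sWAT (-1.06 to 0.47). The neuronal marker Snap25 had 0 to 14 counts per library, against 413 to 1518 for Acot7. Acot8, a peroxisomal enzyme of broad substrate range, showed the same low libraries, with 10.1, 8.82 and 4.10 CPM in BAT at 30 °C and 22.1, 23.0 and 3.56 CPM at 4 °C. Its change in BAT was 1.14 ± 0.64 (adjusted p = 0.271). It was called higher with cold library 3 left out (1.62, adjusted p = 0.027) and with both libraries numbered 3 left out (1.31, adjusted p = 0.000287). In sWAT Acot8 stood at 14.9, 16.0 and 10.9 CPM at 30 °C and at 5.86, 22.1 and 14.1 CPM at 4 °C, a change of -0.01 ± 0.42 (95% interval -0.97 to 0.95). Acot8 overlaps Snx21 on the opposite strand over 246 exon bases, and Snx21 had 425 to 2552 counts per library against 106 to 765 for Acot8, so its counts are uncertain if the counting ignored strand.

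Acot9, a mitochondrial thioesterase, stood at 32.1, 32.1 and 41.4 CPM in BAT at 30 °C and at 52.4, 44.5 and 48.6 CPM at 4 °C, and at 21.9, 29.5 and 25.6 CPM in sWAT at 30 °C and 30.1, 38.1 and 47.3 CPM at 4 °C. The groups did not overlap in either tissue, with a small gap in sWAT. The log2 fold change was 0.52 ± 0.24 in BAT (adjusted p = 0.196) and 0.58 ± 0.25 in sWAT (adjusted p = 0.0807). Without both BAT libraries numbered 3 it was 0.65 in BAT (adjusted p = 0.011), and without sWAT cold library 1 it was 0.73 in sWAT (adjusted p = 0.0232). Over all alternatives the sWAT change ranged from 0.0016 to 0.73, with adjusted p up to 0.996. With single libraries left out it ranged from 0.42 to 0.73. The BAT change ranged from 0.41 to 0.65 over all alternatives, with adjusted p up to 0.430. Acot10, a near copy with 97.2% of coding bases identical to those of Acot9, had 1 count in 1 library and 0 in the other 11.

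Between tissues at thermoneutrality, BAT held more Acot11, Acot12 and Acot13 than sWAT and less Acot4. Acot13 was higher in BAT by 2.86 ± 0.36 on the log2 scale (adjusted p = 2.80e-05), with 155 CPM in the lowest BAT library and 30.8 in the highest sWAT library. Acot11 was higher by 2.30 ± 0.58 (adjusted p = 0.00438) and Acot12 by 2.63 ± 0.74 (adjusted p = 0.00782), again without overlap. Without BAT thermoneutral library 3, Acot12 was at 1.83 and no longer called (adjusted p = 0.0699). Of 23 alternatives 21 kept the call of Acot12, and the largest adjusted p, 0.0767, came from one that did not leave out a single library. Acot4 was lower in BAT by 1.04 ± 0.35 (adjusted p = 0.0205), a call that was lost without BAT thermoneutral library 3 or sWAT thermoneutral library 2. The counts of 3 higher and 1 lower of 10 stand beside 58.7% of 16365 genes called in this comparison, 29.9% higher and 28.8% lower. The sWAT libraries at 30 °C are those that stood apart in mitochondrial share, ribosomal protein share and slope against GC content. All 11 lymphocyte markers were lower in BAT than in sWAT at both temperatures, and their part in these values was not tested.

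In the cold, 0 of the 10 genes differed between BAT and sWAT by edgeR, against 12.3% of 16365 genes called, 1.19% higher and 11.1% lower. At an unadjusted p under 0.05 there was 1, Acot11, and DESeq2 and limma-voom each called 0. Acot11 was at 1.36 ± 0.57 (95% interval 0.14 to 2.58, adjusted p = 0.144), with all BAT libraries above all sWAT libraries. Acot12 was at 0.92 ± 0.46 (-0.07 to 1.91) and Acot13 at 0.64 ± 0.33 (-0.08 to 1.36), both with adjusted p above the threshold. The order of the groups by level was BAT cold, sWAT cold, BAT thermoneutral and sWAT thermoneutral for Acot11 and Acot12, without overlap between neighbours. For Acot13 the order was BAT thermoneutral, BAT cold, sWAT cold and sWAT thermoneutral, and only BAT cold and sWAT cold overlapped. Acot1 and Acot2 ran from BAT cold through sWAT cold and sWAT thermoneutral to BAT thermoneutral, and all neighbours in this order overlapped. Acot4 had the same order, with a gap between its sWAT and BAT libraries at 30 °C only. For Acot9 the sWAT libraries at 30 °C were below all others, and the groups of Acot7 overlapped throughout.

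The counts of cell type markers called with cold are given beside the shares of all genes, which were 25.1% higher and 24.1% lower in sWAT and 6.82% higher and 5.34% lower in BAT. In sWAT, 7 of 7 tested brown adipocyte markers were higher in cold, as were 3 of 8 adipocyte, 7 of 10 skeletal muscle, 4 of 6 endothelial, 1 of 8 macrophage and 1 of 4 neuron and Schwann cell markers. Lower were 6 of 11 lymphocyte, 4 of 8 macrophage, 3 of 7 fibroblast and progenitor, 1 of 4 neuron and Schwann cell and 0 of 3 hepatocyte markers. In BAT, 3 of 8 brown adipocyte markers and 1 of 7 fibroblast and progenitor markers were higher, 1 of 10 lymphocyte and 2 of 10 skeletal muscle markers were lower, and 0 of 8 adipocyte, 8 macrophage, 6 endothelial, 4 neuron and Schwann cell and 2 hepatocyte markers passed. The summed skeletal muscle markers ranged from 114 to 4682 CPM in sWAT at 30 °C and from 7383 to 20249 CPM at 4 °C, and the summed lymphocyte markers from 945 to 1311 CPM and from 286 to 929 CPM. The part of these shifts in the sWAT values of the thioesterase genes was not tested.

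Thioesterases outside the list gave 3 higher and 1 lower of 11 tested in BAT, beside 6.82% and 5.34% of all genes, and 5 higher and 2 lower of 10 tested in sWAT, beside 25.1% and 24.1%. In BAT, Acot5 and Acot6, type I neighbours on chromosome 12, and Them4, a mitochondrial type II enzyme, were higher, and Baat, which conjugates bile acids, was lower. Acot5 had 0, 1 and 0 counts in BAT at 30 °C and 38, 92 and 42 at 4 °C, a depth-scaled ratio of 213 with an exact 95% counting interval of 37.8 to 8467 that rests on 1 count. Acot6 changed by 1.58 ± 0.37 (adjusted p = 0.0288), Them4 by 1.46 ± 0.31 (adjusted p = 0.0209) and Baat by -4.11 ± 0.68 (adjusted p = 0.00888), the last from 0.339 to 0.562 CPM down to at most 0.0336. Higher in sWAT were Hibch, which releases 3-hydroxyisobutyrate in valine breakdown (3.43 ± 0.30), Them4 (3.97 ± 0.39), Acot5 (2.31 ± 0.49), Acot6 (1.34 ± 0.30) and the depalmitoylating enzyme Lypla1 (1.24 ± 0.26). Them6 (-2.05 ± 0.42) and Lypla2 (-1.31 ± 0.28) were lower there. The lysosomal thioesterases Ppt1 and Ppt2 and the lysophospholipase-like Lyplal1 did not pass in either tissue, and Them5 and Acot10 were too low to be tested.

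In each of the other 7 lists, which hold genes that make, carry or burn acyl-CoA, supply CoA or regulate these genes, more members were called higher than lower in both tissues. Of the acyl-CoA synthetases, which run the reverse reaction, 6 of 17 tested were higher and 2 lower in BAT (median 0.78), among them Acsl5 at 3.68 ± 0.39 (adjusted p = 0.0019), Acsf2 at 2.12 ± 0.29 (adjusted p = 0.00457) and Acsm3 at -2.92 ± 0.33 (adjusted p = 0.00236). In sWAT 10 of 18 were higher and 2 lower (median 1.32), with Acsl3 at 3.54 ± 0.41, Slc27a3 at -2.42 ± 0.27 and Acsbg1 at -2.76 ± 0.34. Acyl-CoA and fatty acid binding proteins gave 2 higher and 0 lower of 9 in BAT (Fabp3 at 1.88 ± 0.32 and Scp2 at 1.14 ± 0.26) and 7 higher and 2 lower of 9 in sWAT, led by Acbd5 at 2.83 ± 0.26, Fabp3 at 7.21 ± 0.90 and Fabp4 at 3.59 ± 0.55. Fabp3 is the heart and muscle fatty acid binding protein, and 7 of 10 muscle markers were higher in cold in sWAT. In BAT, where Fabp3 was also higher, 0 of 10 muscle markers were higher and 2 were lower. The part of muscle RNA in the values of Fabp3 was not tested.

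The carnitine shuttle, which carries acyl groups into mitochondria, had 4 of 8 genes higher and 0 lower in BAT (median 1.17), with Cpt2 at 1.88 ± 0.31, Crat at 1.61 ± 0.29 and Cpt1a at 1.13 ± 0.25. In sWAT 6 of 8 were higher and 1 lower, with Slc25a20 at 2.01 ± 0.38, Crot at 1.50 ± 0.29 and Cpt1c at -1.49 ± 0.28. Mitochondrial beta-oxidation had 3 of 18 higher and 0 lower in BAT (Hadha at 1.97 ± 0.30, Acad11 at 1.57 ± 0.29 and Etfdh at 1.36 ± 0.35) and 13 higher and 1 lower in sWAT, where Decr1 stood at 3.51 ± 0.32, Etfdh at 3.23 ± 0.37 and Hadhb at 3.20 ± 0.42. For peroxisomal oxidation the counts were 4 higher and 0 lower of 14 in BAT, with Acox2 at 2.37 ± 0.33, Ehhadh at 1.57 ± 0.24 and Hsd17b4 at 1.61 ± 0.33, and 9 higher and 1 lower in sWAT, with Abcd3 at 3.29 ± 0.33, Ehhadh at 2.06 ± 0.32 and Phyh at 1.70 ± 0.29.

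Of the genes that make or break down CoA itself, 2 of 13 were higher and 0 lower in BAT, the CoA synthase Coasy (1.59 ± 0.39) and the CoA-degrading enzyme Nudt19 (1.31 ± 0.24). In sWAT 5 were higher and 3 lower, led by Nudt7 (2.03 ± 0.24) and the pantothenate kinases Pank1 (3.68 ± 0.52) and Pank3 (2.76 ± 0.45). Among PPAR regulators and Pctp, the partner of Acot13, 3 of 9 were higher and 0 lower in BAT: Ppard (1.74 ± 0.33), Ppargc1a (2.43 ± 0.51) and Pctp (1.09 ± 0.26). In sWAT 6 of 9 were higher and 1 lower, led by Ppargc1a (5.98 ± 0.48), Pparg (2.33 ± 0.27) and Ppargc1b (1.81 ± 0.41). These counts are to be read against the 6.82% of genes higher and 5.34% lower in BAT and the 25.1% higher and 24.1% lower in sWAT.

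**Figure D4:**
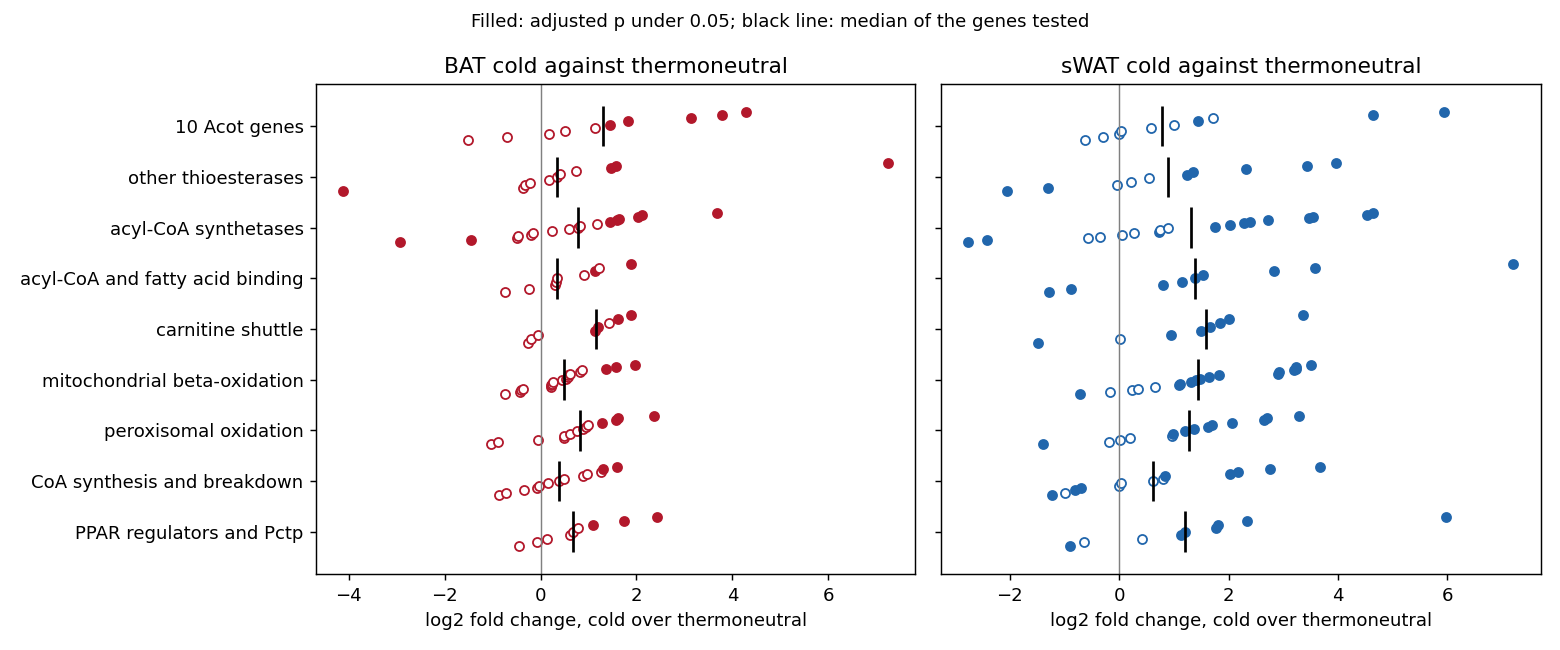
Each point is 1 gene's log2 fold change of cold over thermoneutral in BAT (left) or sWAT (right), by gene list, filled where the adjusted p was under 0.05, with the list median as a black line. The median of the 10 Acot genes is 1.29 in BAT and 0.79 in sWAT; the point far to the right among other thioesterases in BAT is Acot5, which had 1 count at 30 °C.

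As a description of pattern, the 3 genes most like each member were taken by Pearson's r of log2 CPM over the 12 libraries among 8498 expressed genes. The libraries fall into 4 groups that share tissue, temperature and composition, so high values are common. The pattern of Acot11 was closest to Letm1, which encodes an inner mitochondrial membrane protein (r = 0.992), Ucp1 (r = 0.990) and Cnst (r = 0.989). Acot12 was closest to the cold-induced fatty acid elongase Elovl3 (r = 0.992), Dhrs9 (r = 0.982) and the glycogen synthase Gys2 (r = 0.975). Acot13 was closest to Lmo7 (r = 0.980), Adcy9 (r = 0.978) and Ppara (r = 0.969). For Acot1 they were Cars2, Rom1 and Atf5 (r = 0.970 to 0.985), for Acot2 Ptpn11, Tmco3 and Msra (r = 0.955 to 0.958) and for Acot4 Cyb5rl, Derl1 and Ap2a2 (r = 0.939 to 0.966). For Acot7 they were Atp6v1f, Cope and Nr1h2 (r = 0.943 to 0.950), for Acot8 Rps4l, B3gat3 and Scaf1 (r = 0.972 to 0.993) and for Acot9 Ei24, Naa20 and Aig1 (r = 0.950 to 0.966). Acot3 was too low for this comparison. No 2 of these 9 members had a nearest gene in common.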

How the data were processed

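The deposited table holds unnormalized whole-number counts of 12 libraries. Per the labels' protocols, these were Illumina TruSeq libraries from 1000 ng total RNA, read as 100 nt pairs. STAR, DESeq2 and the mm10 build are named in the submitters' processing notes; how reads were counted, and with which strand setting, is not given in the sources used here. The members, gene lists and tests were chosen with earlier results of these data known.

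Counts were analysed in R 4.3.3 with edgeR 4.0.16 (filterByExpr, TMM, glmQLFit with robust=TRUE, glmQLFTest), with Benjamini-Hochberg adjustment over all genes and a threshold of 0.05, without a replicate block. Cold was compared with thermoneutral in the 6 libraries of each tissue, and a fit over 12 libraries compared the responses and the tissues, 5 comparisons in all. SE is the log2 fold change over the square root of F, and 95% intervals use the t quantile of the same test. CPM are counts over the TMM-scaled total, per kb of the longest GENCODE M21 transcript. Counting intervals cover counting error only. The fits were tested on simulated counts with known changes in some genes. These were drawn independently for each gene around a common mean of the libraries compared. They held none of the composition, GC or same-number differences of the real libraries, so the test does not cover these. Of the 66 pairs of libraries 0 had identical counts, and all differed by more than sampling noise (lowest chi-square per degree of freedom 40.0), and 0 columns lacked a sample.

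Named were all 10 members, every gene of the list of other thioesterases, up to 3 members of each of the other 7 pathway lists with the smallest adjusted p in each tissue, Ucp1, and the 3 genes with the highest r for each member with a mean of at least 1 CPM, among genes of mean log2 CPM of at least 3 (prior count 2). The marker lists cover adipocytes, brown adipocytes, lymphocytes, macrophages, skeletal muscle, endothelium, fibroblasts and progenitors, neurons and Schwann cells, and hepatocytes. Adipoq, Snap25, the 6 hepatocyte markers (Alb, Ttr, Apoa1, Apoa2, Serpina1a and Fgb), and genes sharing exon bases with a member, were named beside the result they touch.

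The experiment numbers in the sample titles, 1 to 3, recur in every group. Deviations from group means correlated between same-numbered BAT libraries of both temperatures (r = 0.45, 0.11 and 0.39), which pairs them by the rule used here; the sWAT libraries did not pair. Sequences came from GENCODE M21 and RefSeq (GRCm38.p6), aligned with Biopython 1.88. Alternatives were RLE scaling, totals without the 13 mitochondrially encoded genes, no low-count filter, a filter keeping genes at 1 CPM in 3 libraries, DESeq2 1.42.0, limma-voom (limma 3.58.1), a replicate block, a GC correction (loess, span 0.5), both together, leaving out each library, leaving out both BAT libraries numbered 3, summed paralogs and, for the cold comparisons, a fit over all 12 libraries.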

Additional observations from a re-analysis of the deposited data

Results flagged for a closer look

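Acot13 responded to cold differently in the tissues: the log2 difference of the cold response, sWAT minus BAT, was 2.22 by the interaction test over 12 libraries (adjusted p = 0.00596), with every cold library lower than every thermoneutral one in BAT and higher in sWAT. The sWAT libraries at 30 °C, which this difference rests on, are those with 0.181% to 0.307% of counts from mitochondrially encoded genes. They also had a slope against GC content of 0.883 to 1.46. The part of these properties in the value cannot be told apart from temperature.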

How the results depend on the processing

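Over 1034 values of single genes under the alternatives, 955 kept their direction and side of the threshold, 12 lost the call, 21 gained one and 46 changed sign; the largest log2 value that changed sign was 0.46, and no called value did. The limits are 3 libraries per group, totals of 27117934 to 56243016 counts, and counts as low as 1 (Acot12) and 2 (Acot3) per library. The cause of the changes below was not tested.

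In BAT the genes called over the whole table numbered 1777, and 2683 with DESeq2, 2799 with the replicate block, 3063 with the GC correction, 3454 with the replicate block with GC correction, 6509 with both BAT libraries numbered 3 left out, and 451 to 2483 with single libraries left out. The higher thioesterase genes in BAT were 3 to 6 with single libraries left out (3 without thermoneutral library 1, cold library 1 or cold library 2), and in sWAT 3 to 6 (6 without cold library 1). The filter of 1 CPM left Acot12 out in sWAT. For the difference of the responses, 1 thioesterase gene was lower (Acot4) with RLE scaling, totals without mitochondrial genes, DESeq2, limma-voom, the GC correction and the replicate block with GC correction, and 0 to 2 with single libraries left out (2, Acot4 and Acot8, without BAT cold library 3); all called genes were 2419 to 5498, the fewest without BAT cold library 1 (2443) or 2 (2419). Between tissues at thermoneutrality, 0 were lower with both BAT libraries numbered 3 left out and 0 to 1 with single libraries left out; in cold, 1100 to 2239 genes were called with single libraries left out, 1275, 1113 and 1100 without BAT cold library 1, BAT cold library 2 and sWAT cold library 1.

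In the difference of the responses, RLE scaling moved the median of all genes by -0.15, and totals without mitochondrial genes and DESeq2 by -0.13 each. Higher and lower calls there were 2824 and 1284, against 2423 and 1727 with RLE, 2917 and 2286 with DESeq2, and 1705 and 1203 with the replicate block with GC correction. Between tissues in cold they were 195 and 1820, against 681 and 2049 with DESeq2, 993 and 1883 with the GC correction and 876 and 1786 with the replicate block with GC correction.

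Signs changed as follows. In BAT, Acot7 ranged from -0.11 to 0.49 with single libraries left out. In sWAT, Acot8 was 0.018 with RLE scaling, 0.011 with DESeq2, 0.51 with the GC correction, 0.36 with the replicate block with GC correction, 0.0042 in the fit over 12 libraries and -0.47 to 0.36 with single libraries left out. Acot4 in sWAT was -0.048 with limma-voom, -0.011 with the replicate block, -0.35 with the GC correction, -0.44 with the replicate block with GC correction and -0.12 to 0.33 with single libraries left out, and Acot7 in sWAT was 0.45 and 0.41 under the same GC corrections. In the difference of the responses, Acot9 was -0.030 with RLE scaling, -0.020 with totals without mitochondrial genes, -0.042 with DESeq2, -0.63 with the GC correction, -0.64 with the replicate block with GC correction and -0.12 to 0.23 with single libraries left out; Acot7 was 0.29 and 0.26 with the GC correction without and with the block. Between tissues at thermoneutrality, these GC corrections gave 0.42 and 0.36 for Acot2, 0.63 and 0.59 for Acot7, and -0.14 and -0.14 for Acot9. There, leaving out single libraries gave -0.40 to 0.047 for Acot2 and -0.40 to 0.10 for Acot7, and leaving out both BAT libraries numbered 3 gave 0.10 for Acot7. Between tissues in cold, Acot8 was -0.020 with the replicate block, and Acot3 was 0.22 with both BAT libraries numbered 3 left out and -0.46 to 0.37 with single libraries left out.

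Same-numbered sWAT libraries did not deviate together (r = -0.25, 0.18 and -0.35), and 0 of 6 correlated best with their own number, against 4 of 6 in BAT. The replicate block changed no call of a thioesterase gene; in sWAT it left 6509 called genes, against 7734.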
